A study of Mus musculus with 18 samples.

Results

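Autophagy and lysosome genes known from muscle atrophy were followed in the whisker pad of the mouse after the facial nerve was cut. The 10 genes were chosen by name and known function, at a time when earlier results of these data were known: Ulk1, Becn1, Map1lc3a, Map1lc3b, Gabarapl1, Sqstm1, Bnip3, Bnip3l, Ctsl, and Tfeb, out of 35150 genes whose transcripts could be summed. Tissue punches (skin with its muscle) were taken from the rostral whisker pads of 9 mice for RNA-seq, 3 mice each at day 1, day 3, and day 7. In each mouse 2 branches of the right facial nerve, the buccal and the superior marginal branch, were cut, and on the left the skin was opened and closed again as a sham control, which gave 18 samples in 9 pairs. Right or left face and cut or sham nerve therefore cannot be told apart, and the mice were adult, from a study that used both sexes, while the strain and genotype of the sequenced mice are not given in the sources used here. Mice are numbered 1 to 3 within a day. Each punch holds skin as well as muscle, so a lower value can come from fewer cells of a type or from less RNA per cell, which cannot be told apart in bulk tissue.

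Macroautophagy wraps part of the cytoplasm in a double membrane and delivers it to the lysosome, where acid hydrolases break it down. A kinase complex with ULK1 starts the process, and a lipid kinase complex with Beclin 1 (Becn1) marks the growing membrane. Small proteins of the ATG8 family, among them LC3A (Map1lc3a), LC3B (Map1lc3b), and GABARAPL1, are joined to lipid in that membrane and hold the receptors that bring cargo. Skeletal muscle that has lost its nerve is known to break down protein by the proteasome and by this route, and the transcription factors FoxO3 and TFEB are known to act on many of its genes.

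Levels are sums of TPM over the transcripts of a gene. TPM is transcript abundance scaled for length and depth, and the deposited values carry a further normalization across samples. Because of the scaling for length, levels of different genes can be set side by side. Differences are denervated minus sham on the log2(TPM + 0.5) scale, where 1 is a doubling. Genes had to reach 1 TPM in 47% or more of the samples of a comparison to be fitted with limma, and a gene passed when its p adjusted by the Benjamini-Hochberg method over all these genes was under 0.05. All 10 members passed the filter on low values in every comparison. The model followed the study's own and had no term for the mouse. Because the sample titles give both sides of a mouse, the same fit with the mouse as a block is given wherever it changed a call.

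TFEB is known to bind a short element around lysosomal genes, the CLEAR element, whose core reads CACGTG on both strands. RefSeq held promoter windows on build GRCm38.p6 for 7 of the 10 members, 9 windows in all, and the 250 bases before each start site were searched. The core was in the windows of 2 members and in 6.02% of all 32851 windows. The stretches are shown because they are the only matches among members, with the core in capitals and read along the strand of the gene, which is the minus strand for both.
Bnip3, chr7:138909597-138909626: gcgcacgcgccgCACGTGccacacgctccc
Ctsl, chr13:64370739-64370768: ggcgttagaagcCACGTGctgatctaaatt
In Bnip3 the core lay 108 bases before the start and in Ctsl 236 bases before it. The longer form TCACGTGA, which holds the core, was in no member's window and in 0.79% of all windows, and a FoxO site read as TGTTTAC on either strand was in no member's window and in 3.17% of all. A match of letters is a description of the window and not a bound site.

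The lesion was seen in every pair. Myog, a muscle transcription factor that is held low by the nerve, was higher on the denervated side in 9 of 9 mice with a mean difference of 4.54 ± 0.69 (SD). Chrna1, a subunit of the acetylcholine receptor, was higher in 9 of 9 mice by 2.65 ± 1.29, and Chrng, the fetal subunit, differed by 5.71 at day 3 and 5.16 at day 7. At day 1 Chrng was higher in 0 of 3 mice, with no value above 0.0753 TPM on either side. Of the ubiquitin ligases known from atrophy, Trim63 was higher in 8 of 9 mice by 0.56 ± 0.42, which passed with the mouse as a block (limma adjusted p = 0.036) and not without it (adjusted p = 0.591, and 0.054 to 0.097 with the block when any mouse other than mice 1 and 3 of day 1 was left out), and Fbxo32 was higher in 5 of 9 mice by 0.28 ± 0.50. Estimated depth was 10300000 to 32000000 reads per sample. The members then rest on 186 reads in 1 sample (Tfeb) to 12537 reads (Ctsl), and counting error at the lowest depth was 7.33% for Tfeb and 1.90% to 3.64% for the other 9. One sample pair stood apart in its makeup: in mouse 1 of day 1 the muscle markers had a geometric mean of 184 TPM on the sham side and 273 TPM on the denervated side, against 507 to 1104 TPM in the other 16 samples.

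On the sham side, Map1lc3a had the highest summed level of the members and Tfeb the lowest. A transcript not annotated as protein coding, Map1lc3a-203, held 92.6% of the Map1lc3a sum, and the coding Map1lc3a-201 averaged 33.3 TPM over the 18 samples. Mean levels over 9 sham samples were 489 ± 109 TPM (SD) for Map1lc3a, 285 ± 82.1 for Sqstm1, 183 ± 54.4 for Ctsl, 172 ± 48.4 for Map1lc3b, 114 ± 27.7 for Bnip3l, 105 ± 29.4 for Bnip3, 79.2 ± 5.49 for Becn1, 57.1 ± 12.5 for Gabarapl1, 35.5 ± 5.42 for Ulk1, and 20.3 ± 5.58 for Tfeb. The ranges of all neighbours in that order overlapped. Within a sample, however, most neighbours kept their places: Map1lc3a was above Sqstm1, and Sqstm1 above Ctsl, in 9 of 9 samples, whereas Ctsl was above Map1lc3b in 5 of 9 and Bnip3l above Bnip3 in 5 of 9, so those pairs have no stable order. On the denervated side the order of the means was the same, from 647 ± 122 TPM for Map1lc3a to 15.9 ± 3.94 TPM for Tfeb. Becn1 varied least among sham samples, with the highest sample 1.29 times the lowest, and Bnip3 varied most, with a ratio of 2.62.

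**Figure D1:**
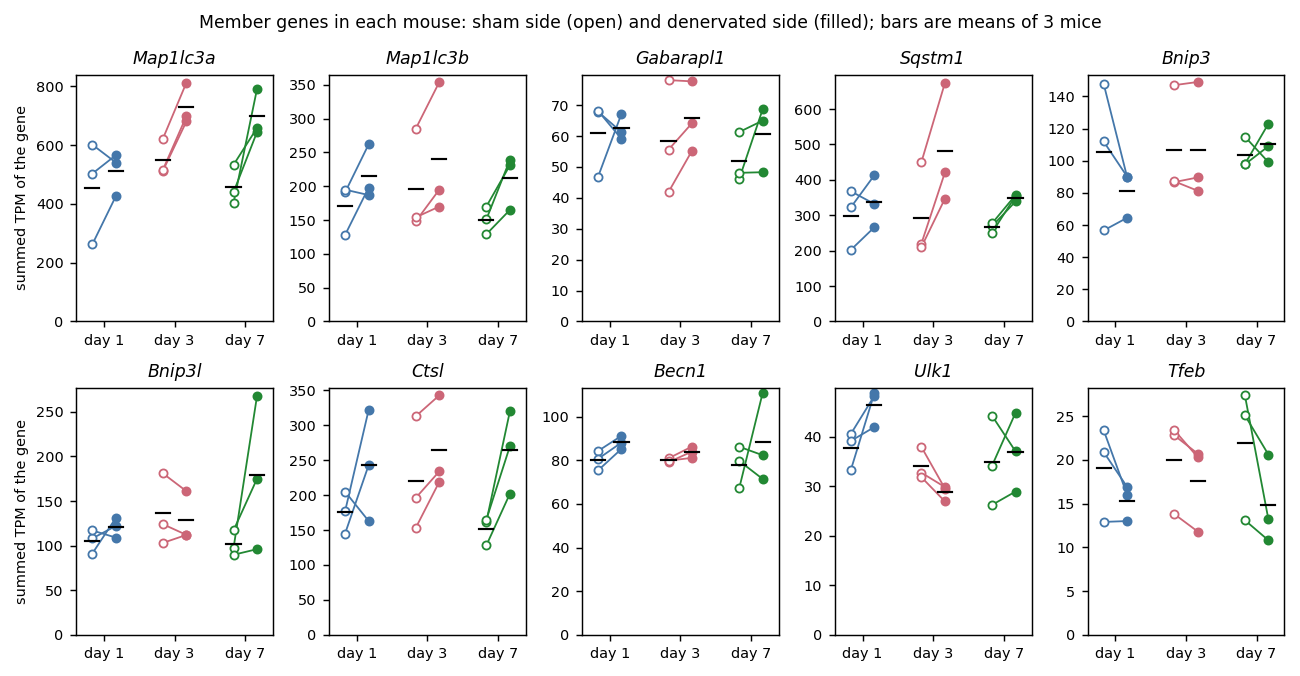
Summed TPM of the 10 members in each mouse, with sham (open circles) and denervated (filled circles) sides of a mouse joined by a line, days in colour, and black bars for the mean of 3 mice; every vertical axis starts at 0. At day 7 the denervated values of Map1lc3a, Sqstm1, and Ctsl lie above every sham value of that day, and Tfeb is lower on the denervated side in all 3 mice.

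Over all days, 8 of the 10 members had a higher mean on the denervated side, and the differences ranged from -0.33 for Tfeb to 0.50 for Ctsl. The median difference of the members was 0.22, against 0.01 over all 14757 genes tested. Without a term for the mouse, limma passed 0 of 10 members, where 3.1% of all genes passed and 1.92% as higher. An unadjusted p under 0.05 was found for 4 members (Map1lc3a, Map1lc3b, Sqstm1, and Ctsl) and for 14.7% of all genes. With the mouse as a block, 3 of 10 members passed and all were higher on the denervated side, namely Map1lc3b, Sqstm1, and Map1lc3a, where 3.5% of all genes passed in either direction and 1.85% as higher. These calls did not hold under small changes: 0 members passed with the block for 6 of the 9 mice left out singly, and 0 when each gene was read from its highest transcript alone. With 1 mouse left out, the differences ran from 0.33 to 0.42 for Map1lc3b, 0.39 to 0.52 for Sqstm1, and 0.35 to 0.49 for Map1lc3a. An exact sign-flip permutation test of the 9 within-mouse differences, two-sided, gave an unadjusted p under 0.05 for 5 of 10 members and for 16.2% of all genes. None of the 10 members passed that test after adjustment, and neither did any other gene. Even the smallest p it can give, 0.0039, which Myog and Chrna1 had, came to a sign-flip adjusted p of 0.116.

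The sides were then compared at each day. At day 1 limma passed 0 of 10 members and 0% of all genes, and 1 member (Ulk1) had an unadjusted p under 0.05, as did 4.29% of all genes. At day 3 it passed 0 of 10, where 1.45% of all genes passed, with 1 member (Map1lc3a) at an unadjusted p under 0.05 (14.7% of all genes), and at day 7 it passed 0 of 10, where 1.53% passed, with 4 members (Map1lc3a, Map1lc3b, Sqstm1, and Ctsl) at an unadjusted p under 0.05 (12.3% of all genes). Blocking on the mouse, Ctsl rose at day 7, where 2.17% of all genes passed in either direction and 1.43% as higher, and 0 members passed at days 1 and 3. The median difference of the members was 0.20 at day 1, 0.13 at day 3, and 0.31 at day 7, against 0.01, -0.01, and 0.04 over all genes. The change of the effect between days was tested directly, and 0 of 10 members passed in any of the 3 contrasts of days, with or without the block. Of all genes 0.122% passed from day 1 to day 3, 0.163% from day 1 to day 7, and 0% from day 3 to day 7, and with the block 0.461%, 0.142%, and 0.00678%. Only Ulk1, from day 1 to day 3, had an unadjusted p under 0.05 in the fit without the block, as did 9.22% of all genes. With the block, 2 members (Sqstm1 and Ulk1) had one from day 1 to day 3, as did 14.2% of all genes. From day 1 to day 7, 0 members did (11.2% of genes), and from day 3 to day 7, 1 did (Bnip3l, 11.3% of genes). Without the block, the standard errors of these contrasts ran from 0.19 to 0.47 for the members. A member that did not pass is therefore not shown to be alike between days.

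The ranges of the sides were also compared at each day. At day 1, Becn1 and Ulk1 had all 3 denervated samples above all 3 sham samples, as did 5.61% of all genes. At day 3, Map1lc3a and Becn1 did (11.7% of genes), and Ulk1 had all denervated samples below all sham samples (9.82% of genes). At day 7, Map1lc3a, Sqstm1, and Ctsl had denervated samples above all sham samples (10.6% of genes). Within pairs, 6 members were higher on the denervated side in 3 of 3 mice at day 7, as were 24.9% of all genes, 5 at day 3 (20.6%), and 2 at day 1 (15.1%). Ulk1 and Tfeb were lower in 3 of 3 mice at day 3, as were 21.9% of all genes, Tfeb was at day 7 (16.9%), and 0 members were at day 1 (12.1%).

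**Figure D2:**
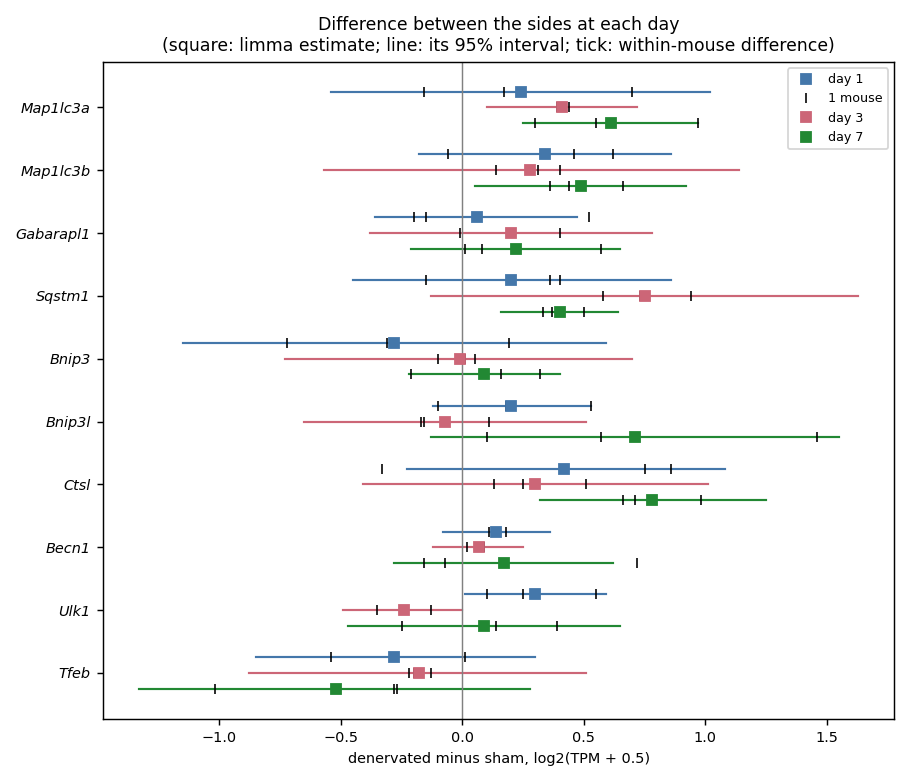
Denervated minus sham difference of each member at days 1, 3, and 7 on the log2(TPM + 0.5) scale, with the limma estimate (square), its 95% interval from the fit without a block (line), and each mouse (tick). Intervals for Map1lc3a and Sqstm1 at day 7 start at 0.25 and 0.16, and that for Ctsl starts at 0.32, whereas those of Bnip3 and Gabarapl1 span 0 at every day.

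Of the genes that start autophagy, Ulk1 encodes the kinase that responds to nutrient and energy signals. Its sham sides at day 1 had 40.5, 39.1, and 33.2 TPM and its denervated sides 48.2, 41.9, and 48.7 TPM in mice 1 to 3. At day 3 the sham sides had 37.9, 32.7, and 31.8 TPM and the denervated sides 29.5, 29.8, and 26.9 TPM. Ulk1 was thus higher on the denervated side in all 3 mice at day 1 and lower in all 3 at day 3, with no overlap at either day. The differences were 0.30 (95% interval 0.01 to 0.59) and -0.24 (-0.49 to 0.00), and neither passed (limma adjusted p = 0.999 and 0.346). At day 7 the sham sides had 26.2, 44.2, and 34.1 TPM and the denervated sides 28.9, 37.0, and 44.8 TPM, which overlapped, with a difference of 0.09 (-0.47 to 0.65).

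Between days on the denervated side, Ulk1 was the only member that passed in the 3 contrasts. It fell by 0.68 (SE 0.15) from day 1 to day 3 (limma adjusted p = 0.027), a contrast in which 11.6% of all genes passed and 3.54% as lower. From day 1 to day 7 and from day 3 to day 7, 0 of 10 members passed, where 21.3% and 0.211% of all genes did. The call of Ulk1 rests on few mice, as it was lost when mouse 1 or 3 of day 1 or any mouse of day 3 was left out, and when samples were scaled to their muscle markers. In the same contrast the median difference was 1.07 over 9 macrophage markers (3 passed as higher), 0.63 over 16 skeletal muscle markers (4 higher, 1 lower), 0.72 over 5 endothelial markers (4 higher), and 0.55 over 8 fibroblast markers (0 passed). It was 1.31 over 4 adipocyte markers (2 higher), 0.83 over 5 neutrophil markers (0 passed), and 0.27 over 6 Schwann cell markers (1 higher). Only the 10 keratinocyte markers had a negative median, at -0.22 (1 lower). The geometric mean of the muscle markers on this side ran from 273 to 538 TPM at day 1 and from 507 to 661 TPM at day 3, and the part of such shifts in the difference of Ulk1 was not tested. On the sham side 0 of 10 members passed in any contrast of days, where 0.0818% of all genes passed from day 1 to day 3, 0.00682% from day 1 to day 7, and 0.0136% from day 3 to day 7. There 0 members had an unadjusted p under 0.05, where 10.9%, 14.4%, and 10.9% of all genes had one in these contrasts. Different mice were sampled at each day.

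Becn1, which encodes Beclin 1 of the lipid kinase complex, had small differences in its summed level at days 1 and 3. At day 1 its sham sides had 84.2, 80.6, and 75.3 TPM and its denervated sides 91.2, 88.1, and 85.2 TPM, and at day 3 the sham sides had 80.9, 79.1, and 79.8 TPM and the denervated sides 86.3, 84.0, and 81.1 TPM. The sides did not overlap at either day, yet the differences were small, at 0.14 (95% interval -0.08 to 0.36) and 0.07 (-0.12 to 0.25). Its day 7 sham sides had 86.2, 67.1, and 79.7 TPM and its denervated sides 82.3, 111, and 71.4 TPM, with mouse 2 alone higher. Over all days its difference was 0.12 (SE 0.07), which did not pass (limma adjusted p = 0.489, and 0.480 with the block). The size depended on the processing, and coding transcripts held only 7.63% of the sum. Under the alternative settings without the block it ran from 0.05 to 0.85 over all days, and none passed (lowest limma adjusted p = 0.078). It reached 0.83 at day 1, 0.65 at day 3, and 1.09 at day 7 under these settings.

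Among the ATG8 genes, Map1lc3a, which encodes LC3A, had the steadiest difference at day 3. Its sham sides then had 622, 513, and 516 TPM and its denervated sides 813, 681, and 699 TPM. At day 7 the sham sides had 440, 533, and 403 TPM and the denervated sides 645, 659, and 792 TPM. No denervated value overlapped a sham value at these days, and each mouse was higher on the denervated side. At day 1 the sham sides had 262, 503, and 602 TPM and the denervated sides 426, 566, and 541 TPM, so the sides overlapped and mouse 3 was lower on the denervated side. The difference was 0.24 (95% interval -0.54 to 1.02) at day 1, 0.41 (0.10 to 0.72) at day 3, and 0.61 (0.25 to 0.97) at day 7.
Over all days Map1lc3a was 1.34-fold higher, a difference of 0.42 (SE 0.13), which passed with the mouse as a block (limma adjusted p = 0.047) and not without it (adjusted p = 0.110). The call with the block was lost when any mouse other than mouse 3 of day 1 was left out (adjusted p = 0.063 to 0.110), with equal sums (0.069), with the highest transcript alone (0.090), and with coding transcripts alone, where the difference was 0.15 (0.552). It was higher in 8 of 9 mice (exact sign-flip permutation p = 0.0078, adjusted p = 0.134).

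Map1lc3b, which encodes the LC3B protein most often used as a marker of autophagosomes, was also higher in 8 of 9 mice. Its day 7 sham sides had 170, 151, and 129 TPM and its denervated sides 231, 239, and 165 TPM, and at day 3 the sham sides had 285, 148, and 154 TPM and the denervated sides 354, 195, and 170 TPM. At day 1 the sham sides had 128, 191, and 195 TPM and the denervated sides 198, 262, and 187 TPM. The sides overlapped at every day because mice differed more from each other than sides did, with mouse 1 of day 3 high on both sides. Over all days the difference was 0.37 (SE 0.16, and 0.08 with the block), and it passed with the mouse as a block (limma adjusted p = 0.025) and not without it (adjusted p = 0.286). Leaving out any mouse other than mice 1 and 3 of day 1 and mouse 3 of day 3 ended that call (adjusted p = 0.057 to 0.067), as did taking the highest transcript alone (0.088).

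Gabarapl1, another ATG8 gene and one known as a FoxO3 target in muscle, had no difference that passed. Its levels ran from 41.9 to 78.1 TPM on the sham side and from 48.3 to 77.7 TPM on the denervated side. Its difference over all days was 0.16 (95% interval -0.10 to 0.41), and 6 of 9 mice were higher. The summed level of 5 ATG8 genes, these 3 with Gabarap and Gabarapl2, was 1119 ± 283 TPM on the sham side and 1235 ± 91.4 on the denervated side at day 1, 1289 ± 202 and 1583 ± 239 at day 3, and 1081 ± 105 and 1510 ± 54.9 at day 7 (SD, n = 3 mice). The day 7 denervated samples, from 1449 TPM, did not overlap the sham samples, up to 1153 TPM. Map1lc3a made up 39.7% to 46.4% of this sum in the 6 groups, and Gabarapl1 4.0% to 5.5%. Most of the Map1lc3a part came from Map1lc3a-203, which is not annotated as protein coding.

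Sqstm1 encodes p62, a receptor that ties ubiquitinated cargo to LC3 and is itself degraded by autophagy. At day 3 its sham sides had 450, 220, and 210 TPM and its denervated sides 674, 421, and 347 TPM. At day 7 the sham sides had 269, 277, and 251 TPM and the denervated sides 339, 357, and 354 TPM. All 6 of these mice were higher on the denervated side, and at day 7 the sides did not overlap, while at day 3 mouse 1 was so high on both sides that they did. At day 1 the sham sides had 202, 322, and 368 TPM and the denervated sides 266, 413, and 332 TPM, and they overlapped.
The difference was 0.20 (95% interval -0.45 to 0.86) at day 1, 0.75 (-0.13 to 1.63) at day 3, and 0.40 (0.16 to 0.64) at day 7. The day 3 interval narrowed to 0.46 to 1.04 when the fit was blocked on the mouse (limma adjusted p = 0.065). Over all days Sqstm1 was 1.37-fold higher, a difference of 0.45 (SE 0.17), which passed with the block (limma adjusted p = 0.029) and not without it (adjusted p = 0.204). That call was lost without any mouse other than mice 1 and 3 of day 1 (adjusted p = 0.054 to 0.076), and with the highest transcript alone (0.122).

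Bnip3 and Bnip3l encode receptors that bring mitochondria to autophagosomes, and neither passed at any day. Bnip3 had 56.6, 112, and 148 TPM on the sham side and 64.5, 90.1, and 89.8 TPM on the denervated side at day 1, and its difference over all days was -0.07 (95% interval -0.44 to 0.30), with 5 of 9 mice higher. At day 3 its differences in the 3 mice were 0.01, 0.05, and -0.10. The sides of Bnip3 overlapped at every day.
Bnip3l at day 7 had 117, 97.1, and 89.7 TPM on the sham side and 175, 268, and 96.0 TPM on the denervated side. All 3 mice were higher there, but unequally and with overlap, with differences of 0.57, 1.46, and 0.10. The mean difference at day 7 was 0.71 (95% interval -0.13 to 1.55), it was -0.07 (-0.65 to 0.51) at day 3, and neither passed (limma adjusted p = 0.489 and 0.938).

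Ctsl encodes cathepsin L, a lysosomal cysteine protease known to increase in wasting muscle, and it had the largest difference over all days among the members. At day 7 its sham sides had 162, 165, and 128 TPM and its denervated sides 320, 270, and 202 TPM. At day 3 the sham sides had 313, 196, and 153 TPM and the denervated sides 343, 234, and 219 TPM. At day 1 the sham sides had 145, 177, and 205 TPM and the denervated sides 243, 322, and 163 TPM. At day 7 the sides did not overlap and each mouse was higher on the denervated side by 0.66 to 0.98, whereas at the earlier days they overlapped and mouse 3 of day 1 was lower.
The difference of Ctsl at day 7 was 0.78 (SE 0.20), a 1.72-fold higher level, which passed when blocked on the mouse (limma adjusted p = 0.033) and not without it (adjusted p = 0.148). Leaving out any 1 of the 3 mice ended the call with the block (adjusted p = 0.087 to 0.142), as did equal sums or the highest transcript alone. Over all days the difference was 0.50 (SE 0.16), with limma adjusted p = 0.117, and 0.057 with the block.

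Tfeb encodes the transcription factor of lysosomal genes and was the only member with a lower mean on the denervated side at each of the 3 days. Its day 7 sham sides had 13.1, 27.4, and 25.1 TPM and its denervated sides 10.8, 13.2, and 20.6 TPM. At day 3 the sham sides had 13.8, 22.8, and 23.4 TPM and the denervated sides 11.8, 20.7, and 20.3 TPM. At day 1 the sham sides had 12.9, 20.9, and 23.4 TPM and the denervated sides 13, 16.9, and 16 TPM. The denervated side was lower in 8 of 9 mice, with mouse 1 of day 1 at a difference of 0.01, but the sides overlapped at every day, since mouse 1 was low on both sides at each day. The mean difference was -0.33 (SE 0.18), which did not pass (limma adjusted p = 0.457, and 0.096 with the block; exact sign-flip permutation p = 0.0078, adjusted p = 0.134).

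Mice differed in how their members moved together. Mouse 1 of day 1 had all 10 members higher on the denervated side with a median of 0.46, and mouse 3 of day 1 had 2 of 10 higher with a median of -0.15. In the other 7 mice, 6 to 8 members were higher. Mouse 3 of day 1 was the exception for Map1lc3a, Map1lc3b, Sqstm1, and Ctsl, the 4 members that were higher in the other 8 mice.

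**Figure D3:**
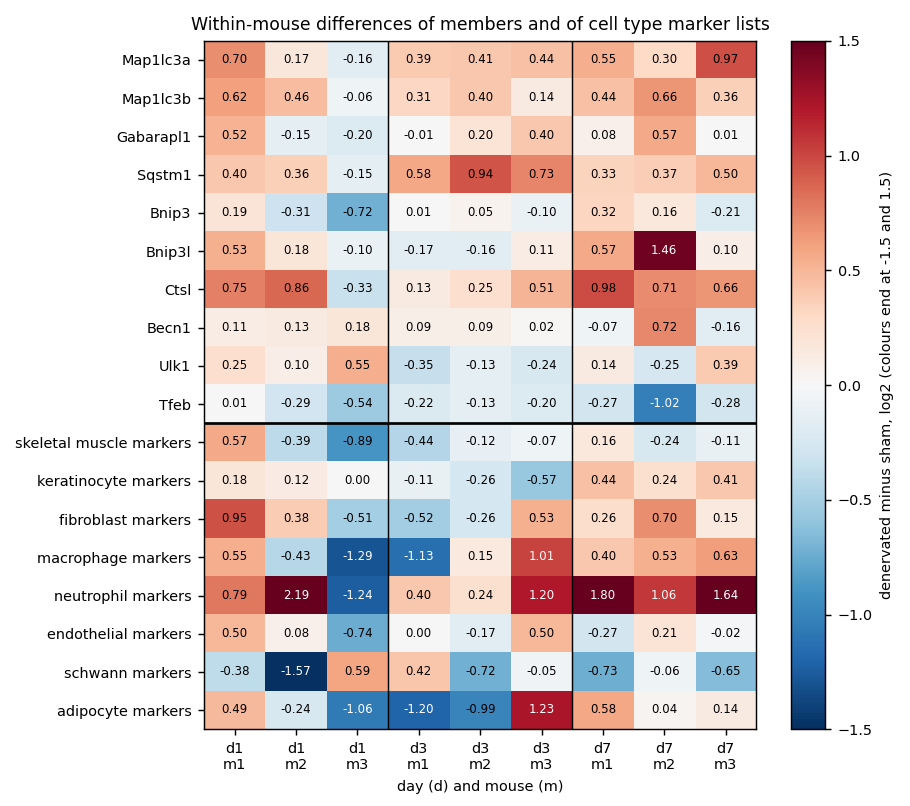
Within-mouse difference, denervated minus sham on the log2 scale, of the 10 members (upper rows) and of the geometric mean of 8 cell type marker lists (lower rows), with a column for each mouse; colours end at -1.5 and 1.5 and each value is printed. In mouse 3 of day 1, Map1lc3a, Map1lc3b, Sqstm1, and Ctsl are lower, as are the muscle, macrophage, neutrophil, adipocyte, endothelial, and fibroblast markers. The Schwann cell markers are higher there by 0.59. At day 7 the neutrophil, macrophage, keratinocyte, fibroblast, and adipocyte markers are higher in all 3 mice.

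Markers of other cells moved beside the members. The 7 neutrophil markers, of which Ly6g and Mmp8 had medians under 1 TPM, were higher on the denervated side in 8 of 9 mice, with a mean of 0.90, and lower in mouse 3 of day 1 by 1.24. Their geometric mean ran from 1.65 to 4.51 TPM on the sham side and from 5.15 to 15.3 TPM on the denervated side at day 7. The 10 macrophage markers were higher in 6 of 9 mice and at day 7 in all 3, by 0.40, 0.53, and 0.63, with 12.1 to 26.5 TPM on the sham side and 18.8 to 35.1 TPM on the denervated side. Keratinocyte markers were also higher in all 3 mice at day 7, by 0.44, 0.24, and 0.41. So were fibroblast markers, by 0.26, 0.70, and 0.15, and adipocyte markers, by 0.58, 0.04, and 0.14. The 16 skeletal muscle markers were lower in 7 of 9 mice, by 0.89 in mouse 3 of day 1. In that mouse the macrophage, adipocyte, endothelial, and fibroblast markers differed by -1.29, -1.06, -0.74, and -0.51, and the Schwann cell markers by 0.59. The 6 Schwann cell markers were lower in 7 of 9 mice, and no marker list had a member at 0 in all samples of a group. Cathepsin L and p62 are also made by macrophages and skin cells, and the part of these cell types in the members' differences was not tested. Scaling each sample to its muscle markers moved the median of all genes from 0.01 to 0.16 and that of the members from 0.22 to 0.39 over all days. Such a scaling multiplies all genes of a sample alike, so it says nothing of how the members stand relative to other genes.

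The sums above are carried by few transcripts, and not always by those annotated as coding. The 10 genes have 81 transcripts in the table, of which 26 held at least 5% of their gene. Map1lc3a-203, annotated as a processed transcript of 3 exons and 826 bases, held 92.6% of Map1lc3a, and the protein-coding Map1lc3a-201 held 5.86%. Becn1-201, annotated as a target of nonsense-mediated decay, held 55.3% of Becn1, and the protein-coding transcripts together held 7.63%. In Bnip3l the processed transcript Bnip3l-205 held 45.5%. For the other 7 members, protein-coding transcripts held 71.0% (Ulk1) to 100% (Gabarapl1). Kallisto divides reads that fit several transcripts of a gene, so these shares are less certain than the sums.

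**Figure D4:**
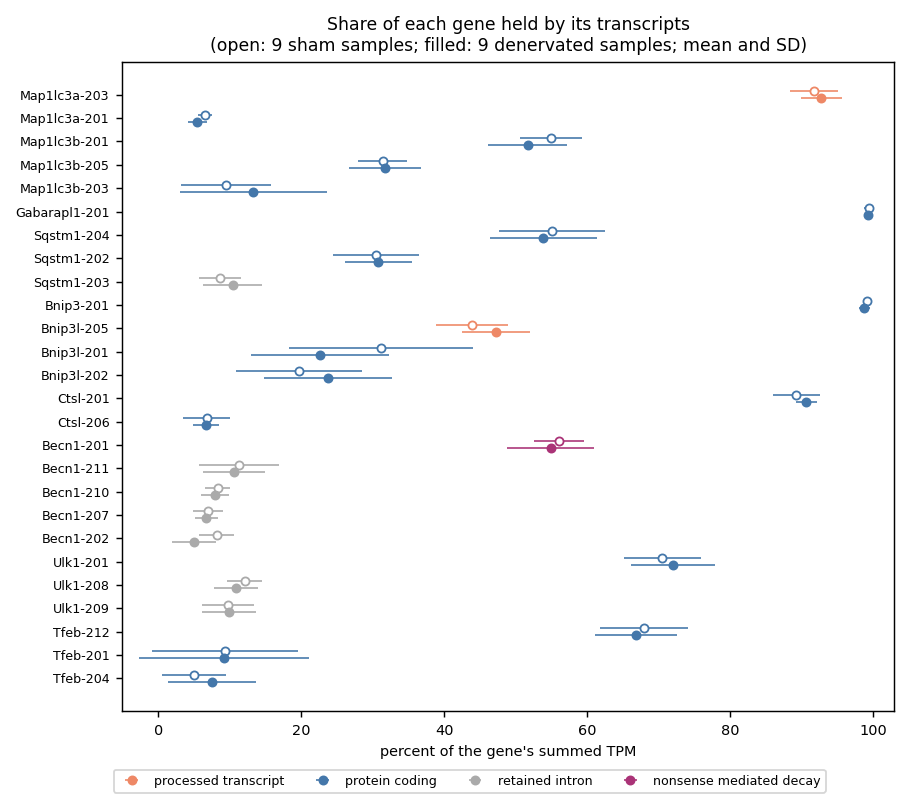
Percent of each gene's summed TPM held by each of the 26 transcripts with at least 5%, as mean and SD of 9 sham samples (open) and 9 denervated samples (filled), coloured by annotated type. Map1lc3a and Becn1 are held mainly by transcripts not annotated as protein coding, and the shares of the sides lie within each other's SD for most transcripts.

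No single transcript passed. Of the 39 transcripts of members that could be tested over all days, limma passed 0 (0.912% of all transcripts passed), with 10 at an unadjusted p under 0.05, and with the block it passed 0 (0.716% of all) with 13. At days 1, 3, and 7 it also passed 0, with 2, 7, and 6 at an unadjusted p under 0.05, where 0%, 0.299%, and 0.385% of all transcripts passed, and 0% of them at any day with the block. The share of all transcripts with an unadjusted p under 0.05 is not given, so these unadjusted counts cannot be judged against it. The difference of Map1lc3a over all days was in Map1lc3a-203, at 0.44 (SE 0.15), and was 0.15 (SE 0.17) in the coding Map1lc3a-201. Of the coding transcripts, Ctsl-201 differed by 0.52 (SE 0.16) over all days and by 0.77 (SE 0.19) at day 7, and Sqstm1-202, the transcript of 8 exons, by 0.47 (SE 0.18) and 0.58 (SE 0.12).
The share of Bnip3l held by Bnip3l-201, the more abundant of its coding transcripts on the sham side, was lower on the denervated side in 9 of 9 mice, at 31.2% ± 12.9 on the sham side and 22.6% ± 9.66 on the denervated side (SD). At day 7 it was 46.2%, 38.5%, and 10% on the sham side and 15%, 33.4%, and 8.18% on the denervated side. Mice differed more than sides did, and the ranges overlapped. Of 24 member transcripts from genes with at least 2 such transcripts this was the only one that went 1 way in all mice, as did 0.296% (lower) and 0.303% (higher) of 28029 transcripts of all genes. It was picked out after its values were seen.

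The other genes of the route were described by 7 lists of 96 genes, of which 95 were tested. Over all days 66 of 95 had a positive difference and the median was 0.06, where 51.8% of all genes were positive. Limma passed 2 of 95 (Atg12 and Foxo1, both higher), with 17 at an unadjusted p under 0.05, where 3.1% of all genes passed and 14.7% had such a p, so the share that passed was no larger than over all genes. Atg12, which conjugates to ATG5 to form the enzyme that lipidates LC3, rose by 0.24 (SE 0.05, limma adjusted p = 0.019), and by the mean it went from 17.8 ± 0.873 to 22.8 ± 1.81 TPM at day 7. Its call was lost without mouse 2 of day 1, mouse 2 or 3 of day 3, or mouse 2 or 3 of day 7 (adjusted p = 0.053 to 0.085), with equal sums (0.129), and with muscle marker scaling (0.970). Foxo1, a transcription factor of atrophy genes, rose by 0.30 (SE 0.08, limma adjusted p = 0.047), and did not pass with the mouse as a block (adjusted p = 0.071). Its mean level went from 7.48 to 10.9 TPM at day 1, from 7.77 to 8.38 TPM at day 3, and from 8.17 to 10 TPM at day 7, it passed at none of these days, and its call was lost without any mouse other than mouse 2 of day 3 (adjusted p = 0.060 to 0.142). With the block, Atg12 (limma adjusted p = 0.033), Vmp1 (0.026), a membrane protein of autophagosome formation, and Ctsd (0.036), the lysosomal aspartic protease cathepsin D, passed over all days, and each of these 3 calls was lost for 6 or 7 of the 9 mice left out singly.
At single days 0 of 95 passed without the block, with 4, 9, and 21 at an unadjusted p under 0.05 at days 1, 3, and 7, where 4.29%, 14.7%, and 12.3% of all genes had one. With the block, 2 of 95 passed at day 7, where 2.17% of all genes did: Ctsk and Ctss, cathepsins known from osteoclasts and from immune cells, rose at day 7 by 0.94 (SE 0.22) and 0.80 (SE 0.23) with limma adjusted p = 0.044 and 0.035, against 0.128 and 0.203 without it, and both calls ended when any 1 mouse of day 7 was left out.

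**Figure D5:**
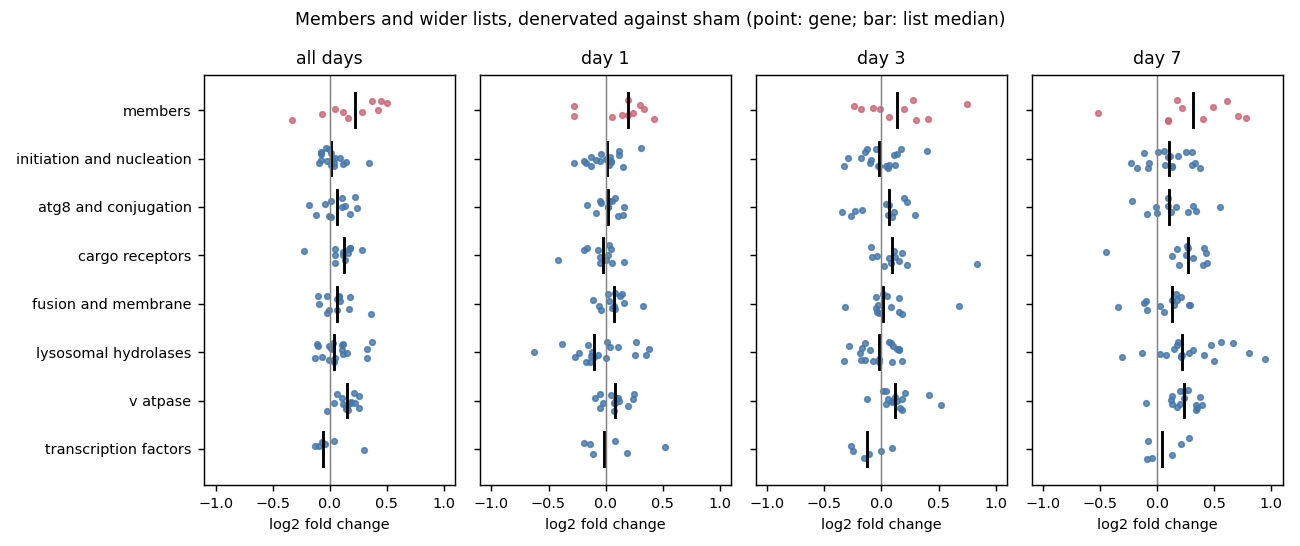
Log2 fold change, denervated against sham, of the members and of the genes of 7 wider lists over all days and at days 1, 3, and 7, with a point for each gene and a bar for the median of its list. At day 7 the medians of the members (0.31), cargo receptors (0.27), subunits of the proton pump of the lysosome (0.23, "v atpase"), and lysosomal hydrolases (0.22) lie to the right of 0.

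At day 7, 75 of 95 genes of the wider lists were positive, where 56.1% of all genes were, with a median of 0.17. The lysosomal hydrolases had 7 of 19 positive at day 1 with a median of -0.10, 8 of 19 at day 3 with -0.02, and 17 of 19 at day 7 with 0.22. Beside them, the macrophage markers had 0 of 9 positive at day 1 with a median of -0.45, 2 of 10 at day 3 with -0.12, and 9 of 10 at day 7 with 0.49, and their part in the hydrolases was not tested. Subunits of the V-ATPase, the pump that acidifies the lysosome, had 14 of 15 positive over all days with a median of 0.15, and 14 of 15 at day 3 and at day 7 with medians of 0.12 and 0.23, and 0 of them passed. Cargo receptors other than the members had 11 of 12 positive at day 7 with a median of 0.27. The initiation genes beside Ulk1 and Becn1 had 10 of 18 positive over all days with a median of 0.01, as near to 0 as all genes. None of these lists was tested as a list, and the members of the lists share cells and samples.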

How the data were processed

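RNA-seq of skin and muscle punches was taken as the authors deposited it, as a signal per transcript: TPM that were also normalized between samples, with sums of 833186 to 1143839 per sample. The authors used TruSeq libraries, bcl2fastq 2.17.1.14, ParDRe, Fastp, and Kallisto 0.43.1 against ENSEMBL GRCm38 cDNA, and loaded the output into Sleuth. Tests planned for plain TPM were kept. The day 7 columns carry other mouse numbers than the titles and were matched by their S number, and 0 columns of per-sample values were left out.

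Of 113194 transcripts, 98.46% matched GENCODE M21 by identifier and were summed per gene. Limma 3.58.1 in R 4.3.3 was fitted to log2(TPM + 0.5) with a mean-variance trend: day plus injury over 18 samples, each day alone, and 6 group means for contrasts of days. P values were adjusted over all genes or transcripts tested. Both sides come from the same mouse by the titles, and their deviations from group means correlated at 0.163 to 0.568 over 14757 genes. The sign-flip test enumerated all flips over 9 mice (smallest p 0.0039, and 0.25 with 3 mice, so days got no such test). Depth was estimated from low values of transcripts of at least 2500 bases and covers counting error only.

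The fits were tested on simulated data in which a changed gene had the same effect at every day. Fewer of the changed genes were recovered at single days than over all days. No change of effect between days was simulated, so recovery in the contrasts of days was not tested. The rest was done in Python 3.11.15 (scipy 1.17.1, numpy 2.4.6, pandas 2.3.3, with figures by matplotlib 3.10.9).

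The members and lists were chosen with earlier results of these data known. Named by rule are all members, 5 lesion checks, wider-list genes that passed or define their list, and transcripts with at least 5% of a member. Bnip3l-201's share was singled out afterwards. Alternatives were pseudocounts of 0.1 and 1, other filters, scalings and transcript sums, no trend, 1 fit of 18 samples, the mouse as a block, and leaving out each mouse. Combinations with the block, and some filters for contrasts of days, were added after seeing the data.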

Additional observations from a re-analysis of the deposited data

Results flagged for a closer look

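The effect of denervation on the summed level of Ulk1 went opposite ways at days 1 and 3: all 3 mice were higher on the denervated side at day 1 and all 3 lower at day 3. The change of the effect from day 1 to day 3 was -0.54 on the log2 scale (SE 0.25), which did not pass in limma (adjusted p = 0.534, blocked on the mouse 0.244). Of the 10 members and 3 pairs of days, this was the only case of all mice moving one way at a day and the other way at another. Of all genes, 15.1% were higher in 3 of 3 mice at day 1, and 21.9% were lower in 3 of 3 at day 3. The share of genes that did both was not counted, so this case is not set against all genes. In the coding transcript Ulk1-201 the sides overlapped at day 3, and mouse 2 had 21.5 TPM on the sham side and 21.7 TPM on the denervated side. Its difference at day 3 was -0.09 (SE 0.12). Between these days the summed Ulk1 changed by -0.68 (SE 0.15) on the denervated side, which passed, as did 11.6% of all genes. On the sham side it changed by -0.14 (SE 0.19), which did not pass, where 0.0818% of all genes did. A call on 1 side alone does not place the change there, as the direct contrast did not pass.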

How the results depend on the processing

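Pairing the sides by a block for each mouse raised the members that passed from 0 to 3 over all days and from 0 to 1 at day 7. With that block, 3 passed over all days under median-of-ratios scaling or a pseudocount of 1, 2 under equal sums or coding transcripts alone, 4 under muscle marker scaling, and 0 with the highest transcript alone. At day 7, Ctsl passed (1 member) with the block under median-of-ratios scaling, muscle marker scaling, a pseudocount of 1, and coding transcripts, and 0 passed under equal sums or with the highest transcript alone. At day 3, 1 (Sqstm1) passed with the block and muscle marker scaling. Leaving out 1 mouse gave 0 to 4 over all days with the block: 0 for 6 of the 9 mice, 2 without mouse 1 of day 1, 4 without mouse 3 of day 1, and 1 without mouse 3 of day 3. Without the block it gave 0 to 1, where Map1lc3a passed without mouse 1 or mouse 3 of day 1 (limma adjusted p = 0.037 and 0.040, against 0.037 to 0.771 over its 19 alternatives).

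On the denervated side between days, 1 member passed, and 2 did with a TPM of at least 5 or the highest transcript alone. Leaving out 1 mouse gave 0 to 2, with 2 without mouse 3 of day 7. Under muscle marker scaling 8 members passed, all lower at day 7 than at day 1, where that scaling moved the median of all genes from 0.02 to -1.08 and 72.4% of all genes passed, so the count is of a shift common to all genes.

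Directions were reversed for differences near 0, at the same values with and without the block. Over all days, Bnip3 was 0.10 under muscle marker scaling and -0.12 to 0.01 when 1 mouse was left out (0.01 without mouse 3 of day 1), and Ulk1 was -0.01 without that mouse and up to 0.10 without another. At day 1, Gabarapl1 was -0.18 without mouse 1 and up to 0.19 without another. At day 3, muscle marker scaling gave 0.20 for Bnip3, 0.14 for Bnip3l, and 0.02 for Tfeb, where it moved the median of all genes from -0.01 to 0.18, and Bnip3 was -0.04 to 0.03 without 1 mouse, highest without mouse 3. At day 7, leaving out 1 mouse gave -0.03 (without mouse 1) to 0.24 for Bnip3, -0.11 (without mouse 2) to 0.33 for Becn1, and -0.06 (without mouse 3) to 0.26 for Ulk1. The cause of the other reversals was not tested. Of 1070 values of members under alternatives, 1016 kept direction and call, 32 newly passed, and 22 were reversed.

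A difference that did not pass is not shown to be absent.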

Other observations

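On the denervated side, 11 of 95 genes of the wider lists passed between day 1 and day 3, the same share as over all genes (11.6%). Higher at day 3 were Hexa, which encodes a subunit of the lysosomal enzyme hexosaminidase, by 0.97 (SE 0.13, limma adjusted p = 0.0042), Retreg1, a receptor for autophagy of the endoplasmic reticulum, by 0.77 (SE 0.13, adjusted p = 0.010), Ctsz by 0.76 (SE 0.14, adjusted p = 0.014), Lipa, the lysosomal acid lipase, by 0.75 (SE 0.15, adjusted p = 0.017), and Lamp1, Gaa, and Fundc1. Lower were Ctsa, Wipi2, Atg101, and Atg2b. By day 7, Hexa stood 1.28 (SE 0.13) and Ctss 1.44 (SE 0.29) above their day 1 levels, in a contrast where 14 of the 95 genes passed as higher and 4 as lower, and 21.3% of all genes passed. Cell type markers moved on this side too: the median difference of the macrophage markers was 1.07 from day 1 to day 3 and 1.68 from day 1 to day 7 (7 of 9 passed as higher in the latter), that of the skeletal muscle markers 0.63 and 1.24 (9 of 16), of the fibroblast markers 0.55 and 1.14 (3 of 8), of the endothelial markers 0.72 and 0.73 (3 of 5), and of the adipocyte markers 1.31 and 2.38 (3 of 4). Medians of the neutrophil markers were 0.83 and 0.65, and of the Schwann cell markers 0.27 and 0.13. Those of the keratinocyte markers were -0.22 and -0.21 (2 of 10 passed as lower in the latter). The part of these cell types in the lysosomal genes was not tested. None of these genes passed on the sham side, where 0.0818% of all genes passed from day 1 to day 3 and 0.00682% from day 1 to day 7. The lack of calls there does not set the sides apart, and 0 of the 95 genes passed in the direct contrasts of the effect. From day 1 to day 3 Lamp1 rose by 0.41 (SE 0.17) on the sham side and 0.50 (SE 0.11) on the denervated side. The sham mean of Retreg1 fell from 113 to 81.6 TPM. Different mice were sampled at each day.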
